A study of Rattus norvegicus with 2 samples.

Results

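The corticosteroid receptors, the enzymes that activate or inactivate corticosteroids, and a set of well-known glucocorticoid-induced genes were read on the arrays of the 2RS30 and 2RH30 groups. The members were 10 gene symbols, and a member was read through each probe set annotated to that symbol alone. A probe set is the group of short probes by which the array reads 1 transcript. Of the 10 genes, 9 were measured, through 15 probe sets, among 14217 genes and 31042 probe sets in all. Zbtb16, a transcriptional repressor induced by glucocorticoids, has no probe set named for it here and gives no value.

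Both groups were adult male Sprague-Dawley rats with catheters in the jugular vein and carotid artery, which were fasted overnight and then received the same insulin infusion in a hyperinsulinemic-hypoglycemic clamp on day 4. Antecedent treatment of the 2RH30 rats was human insulin (2 IU/kg, intraperitoneal) for 3 days, 2 injections daily but 1 on day 3 according to the methods of the study, and that of the 2RS30 rats was saline given in the same way. Both were killed 30 min after the glucose target (40 to 50 mg/dL in the sample labels) was reached, so the groups differ in antecedent treatment only. With no earlier time point read here, a difference present before the clamp cannot be told from one that arose during it. Antecedent insulin and the hypoglycemia that it caused cannot be told apart either. For each group, RNA of the left adrenal medulla from 6 rats was pooled and read on 1 Affymetrix Rat Genome array. With 1 array per group there is no replicate check, no p-value is given, and each difference is between these 2 pools. In such bulk RNA, fewer cells of a type and less RNA per cell cannot be told apart.

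Corticosterone, the main glucocorticoid of the rat, is made in the adrenal cortex and reaches the medulla at high concentration through blood that drains inward from the cortex. In chromaffin cells it acts through the glucocorticoid receptor, which leaves a chaperone complex after binding hormone, enters the nucleus and activates genes. This input is known for maintaining Pnmt, the enzyme that makes epinephrine, and the mineralocorticoid receptor binds the same hormone with higher affinity. According to the paper, corticosterone rose from baseline during the clamp in both the saline and the recurrent hypoglycemia group. The groups did not differ significantly in this response, and the paper does not show the values.

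Values are log2 levels as deposited by the authors, and a difference is 2RH30 minus 2RS30, so that 1 stands for 2-fold. The difference varied with the level, its median being -0.38 in the dimmest and 0.49 in the brightest of 20 bins of mean level. Because of this trend, each difference is also given level-adjusted, after removal of the trend with level by lowess. The bacterial bioB control transcripts added to the hybridization differed by -3.51 to -3.03. The adjustment does not address that gap, as the array controls were left out of it. A probe set below the median of both arrays (5.50 in 2RS30 and 5.51 in 2RH30) is called dim. As a yardstick for single values, the SD of the difference between probe sets of the same gene was 0.82 over 2539 genes. This spread was taken over probe sets that were not dim, and it holds no variation between animals or pools. It was 0.86 for genes of mean level under 7 and 0.63 for those at 7 or higher. On the 2RS30 array 2335 probe sets carried 1 of 10 values that were each shared by 50 or more probe sets, whereas on the 2RH30 array no value was shared by more than 25.

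Of the 15 member probe sets, 3 exceeded 2-fold upward in 2RH30 (1 of Tsc22d3 and 2 of Cebpd) and 3 exceeded it downward (1 each of Nr3c1, Nr3c2 and Fkbp5). Over all probe sets, 10.4% were higher and 12.1% were lower by that much, 22.5% in either direction. Level-adjusted, 1 member probe set was 2-fold higher (Cebpd) and 2 were lower (Nr3c2 and Fkbp5), against 8.99% and 10.2% of all probe sets and 19.2% in either direction. Without the 2 dim ones, 3 of 13 were 2-fold higher and 2 lower, against 15.4% and 9.46% of probe sets that were not dim, and level-adjusted 1 and 2, against 10.6% and 11.9%. With 1 probe set per gene, the one with the highest mean level, 2 of 9 member genes were 2-fold higher (Tsc22d3 and Cebpd) and 1 was lower (Nr3c2), against 11.5% and 9.62% of all genes, 21.1% in either direction. Level-adjusted these were 1 (Cebpd) and 1 (Nr3c2), against 8.95% and 9.31%, 18.3% in either direction. The mean level includes 2RH30, so this choice of probe set uses 1 of the 2 values compared. A probe set called brighter or brightest with no array named is so by mean level. With the probe set brightest in 2RS30 instead, 1 member gene was 2-fold higher (Tsc22d3) and 3 were lower (Nr3c1, Nr3c2 and Fkbp5). By mean level, the median difference of the 9 genes was 0.38, and 0.19 level-adjusted, beside 0.11 and 0.02 over all 14217 genes, and by 2RS30 level it was 0.03 and -0.25, beside 0.06 and -0.03. The differences within this group of genes thus spanned both directions, from -1.30 for Nr3c2 to 2.06 for a probe set of Cebpd.

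**Figure D1:**
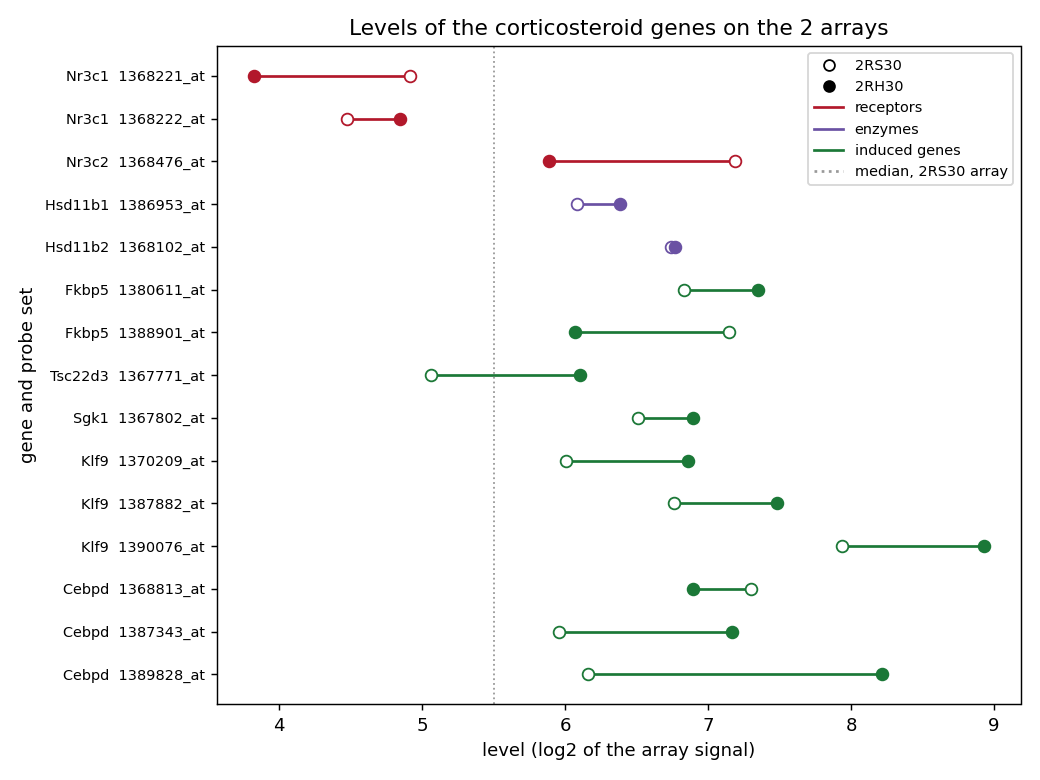
Level (log2, horizontal axis) of the 15 probe sets of 9 genes (vertical axis) in 2RS30 (open) and 2RH30 (filled), with a line joining the values of a probe set and the median of the 2RS30 array dotted. The 3 probe sets of Klf9 lie to the right in 2RH30, while those of Nr3c1, Fkbp5 and Cebpd run in opposite directions; levels are not comparable between probe sets.

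The receptors were considered first. Nr3c2, which encodes the mineralocorticoid receptor, read 7.19 in 2RS30 and 5.89 in 2RH30 through its single probe set, differing by -1.30 (level-adjusted -1.55). This is a 2.46-fold lower signal in the pool with antecedent hypoglycemia, 2.92-fold lower after the adjustment, and it was the lowest difference of any member probe set in both forms. The size of the difference lay at percentile 89.6 among probe sets of its level bin. Nr3c1, which encodes the glucocorticoid receptor, was read by 2 probe sets, both of them dim. The probe set of lower mean level read 4.91 in 2RS30 and 3.82 in 2RH30, differing by -1.09 (level-adjusted -0.74). The other read 4.48 in 2RS30 and 4.85 in 2RH30, differing by 0.37 (level-adjusted 0.62). The probe sets of Nr3c1 thus gave opposite directions in both forms, and the mean over them was -0.36 as deposited and -0.06 level-adjusted. The lower 2RH30 reading, 3.82, exceeded 15.6% of the values of its array and lay near the dim end. The values give no common direction for the glucocorticoid receptor, and the mineralocorticoid receptor has no further probe set here to set beside the single reading.

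The enzymes differed by less than the yardstick. Hsd11b1 encodes the 11-beta-hydroxysteroid dehydrogenase that mainly regenerates active corticosterone inside cells. It read 6.09 in 2RS30 and 6.39 in 2RH30, differing by 0.30 (level-adjusted 0.10). Its 2RS30 value is 1 of the shared ones, carried by 329 other probe sets of that array. Hsd11b2 encodes the enzyme that inactivates corticosterone and so shields the mineralocorticoid receptor. It read 6.74 in 2RS30 and 6.77 in 2RH30, differing by 0.03 (level-adjusted -0.25). By size, the deposited differences ranked at percentile 30.2 for Hsd11b1 and 3.41 for Hsd11b2 within their bins of level. H6pd, which supplies the cofactor for the reductase direction of the first enzyme in the endoplasmic reticulum, is not a member and read 5.34 in 2RS30 and 7.05 in 2RH30. Its difference of 1.71 (level-adjusted 1.51) rests on 1 probe set.

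Of the 5 measured glucocorticoid-induced members, Klf9 read higher in 2RH30 in all 3 of its probe sets. Tsc22d3 and Sgk1 read higher in the only probe set of each, while Fkbp5 and Cebpd each had 1 that read lower. The count for the list therefore depends on the probe set taken for those genes. With the probe set of highest mean level 5 of 5 read higher, with a median of 0.99 (level-adjusted 0.50), and with the probe set brightest in 2RS30 3 of 5 did, with a median of 0.38 (level-adjusted 0.11). Over all genes, 56.1% read higher by the former choice and 53.4% by the latter.

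Klf9, a zinc finger transcription factor that glucocorticoids induce rapidly in many tissues, gave the most uniform readings of the 4 members with several probe sets. Its 3 probe sets read 7.94, 6.76 and 6.00 in 2RS30 and 8.93, 7.48 and 6.86 in 2RH30, from the brightest to the dimmest. The differences were 0.99, 0.72 and 0.85, all upward and all under 2-fold, and level-adjusted 0.50, 0.39 and 0.62. Their range of 0.27 was narrow, as 3.86% of the 1036 genes with 3 probe sets had a smaller one and the median range was 1.24. All probe sets read higher in 227 of those 1036 genes (21.9%). Counting only probe sets that were not dim, as those of Klf9 were, all 3 read higher in 186 of 523 genes (35.6%). A common direction alone is therefore not particular to Klf9. Tsc22d3, which encodes the glucocorticoid-induced leucine zipper protein GILZ, read 5.06 in 2RS30 and 6.11 in 2RH30. This difference of 1.04, 2.06-fold, was 0.95 or 1.93-fold when level-adjusted, and it comes from 1 probe set that was below the array median in 2RS30 and above it in 2RH30.

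The sequences before the transcription start of Klf9 and Tsc22d3 are shown because every probe set of both genes read higher in 2RH30, by 0.72 or more. Level-adjusted this was 0.385 or more, and Tsc22d3 has only 1 probe set. RefSeq (GRCr8 assembly) gives windows of 300 bases, 250 before and 50 after a start, for 5 of the 10 genes, and those windows number 10 in all because Sgk1 and Tsc22d3 have 3 starts and Nr3c1 has 2. No window was given for Nr3c2, Hsd11b1, Hsd11b2, Zbtb16 and Cebpd. The 250 bases before the start are printed 5′ to 3′ for Klf9 at chr1:230126396-230126645 on the plus strand and for the start of Tsc22d3 nearest to the end of the gene at chrX:109010035-109010284 on the minus strand. Capitals mark the letters TGACG or their complement CGTCA, the core of the cAMP response element.
Klf9: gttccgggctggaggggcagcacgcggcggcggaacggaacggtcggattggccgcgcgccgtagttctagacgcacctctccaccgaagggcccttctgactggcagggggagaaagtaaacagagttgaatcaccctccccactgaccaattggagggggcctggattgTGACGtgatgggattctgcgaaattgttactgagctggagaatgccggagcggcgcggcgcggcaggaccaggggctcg
Tsc22d3: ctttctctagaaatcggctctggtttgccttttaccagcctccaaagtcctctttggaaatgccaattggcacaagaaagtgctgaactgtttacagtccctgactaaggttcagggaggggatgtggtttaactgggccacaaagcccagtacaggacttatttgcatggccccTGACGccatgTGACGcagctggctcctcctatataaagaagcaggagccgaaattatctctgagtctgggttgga
The glucocorticoid response element, spelled AGNACA and TGTNCT with 3 bases of any kind between them, was found in 0 of the 10 windows and in 0.0568% of all 33469 windows, and its shorter monomer site AGAACA, on either strand, in 0 of 10 and 20.7%. The letters TGACG on either strand were found in 2 of 10 windows, the 2 printed, and in 21.2% of all, a similar share. The window printed for Tsc22d3 was the only 1 of its 3 to hold these letters. In Klf9 the match begins 79 bases before the start, and in Tsc22d3 matches begin 75 and 65 bases before it. The GC box GGGCGG lay in 7 of 10 windows (33.1% of all), CCAAT in 3 (37.5%), TATAAA in 3 (14.2%) and the E-box CACGTG in 0 (6.42%). The letters TGACG and these 4 motifs were added to the search with the differences known. A match is a run of letters and not a binding site, and these windows hold none of the distal sequence of the genes.

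Fkbp5, an immunophilin that lowers the hormone affinity of the receptor complex and is itself induced by the receptor, gave conflicting readings. Its probe set of higher mean level read 6.83 in 2RS30 and 7.35 in 2RH30, differing by 0.52 (level-adjusted 0.19). Its other probe set, the brighter in 2RS30, read 7.15 in 2RS30 and 6.07 in 2RH30, differing by -1.08 (level-adjusted -1.33). The readings were 1.60 apart, wider than in 85.0% of the 3061 genes with 2 probe sets, whose median range was 0.697. Nr3c1, at 1.46 apart, exceeded 81.7% of the same genes. The mean over the probe sets of Fkbp5 was -0.28 as deposited and -0.57 level-adjusted, opposite in sign to its probe set of higher mean level.

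Cebpd, which encodes the transcription factor C/EBP delta and responds to glucocorticoids as well as to inflammatory cytokines, had both the highest difference of the members and the widest spread. Of its 3 probe sets, the one of highest mean level read 6.16 in 2RS30 and 8.22 in 2RH30, differing by 2.06 (level-adjusted 1.71). The one of lowest mean level read 5.96 in 2RS30 and 7.16 in 2RH30, differing by 1.20 (level-adjusted 0.95). The remaining one, the brightest in 2RS30, read 7.30 in 2RS30 and 6.90 in 2RH30, differing by -0.40 (level-adjusted -0.74). The probe sets therefore agreed on a higher signal in 2 of 3 cases, and the mean over the 3 was 0.95 as deposited and 0.64 level-adjusted. Their range of 2.46 exceeded that of 91.8% of the genes with 3 probe sets. Sgk1, a kinase that promotes sodium channel activity and is induced through both receptors, read 6.51 in 2RS30 and 6.89 in 2RH30, differing by 0.38 (level-adjusted 0.11).

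Probe sets of the same gene also disagreed elsewhere on these arrays. Of the 3061 genes with 2 probe sets, 58.2% had both on the same side of 0, and of the 1036 genes with 3 probe sets, 33.7% had all of them on the same side. Of the 4 members with more than 1 probe set, only Klf9 had all of its probe sets on the same side.

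**Figure D2:**
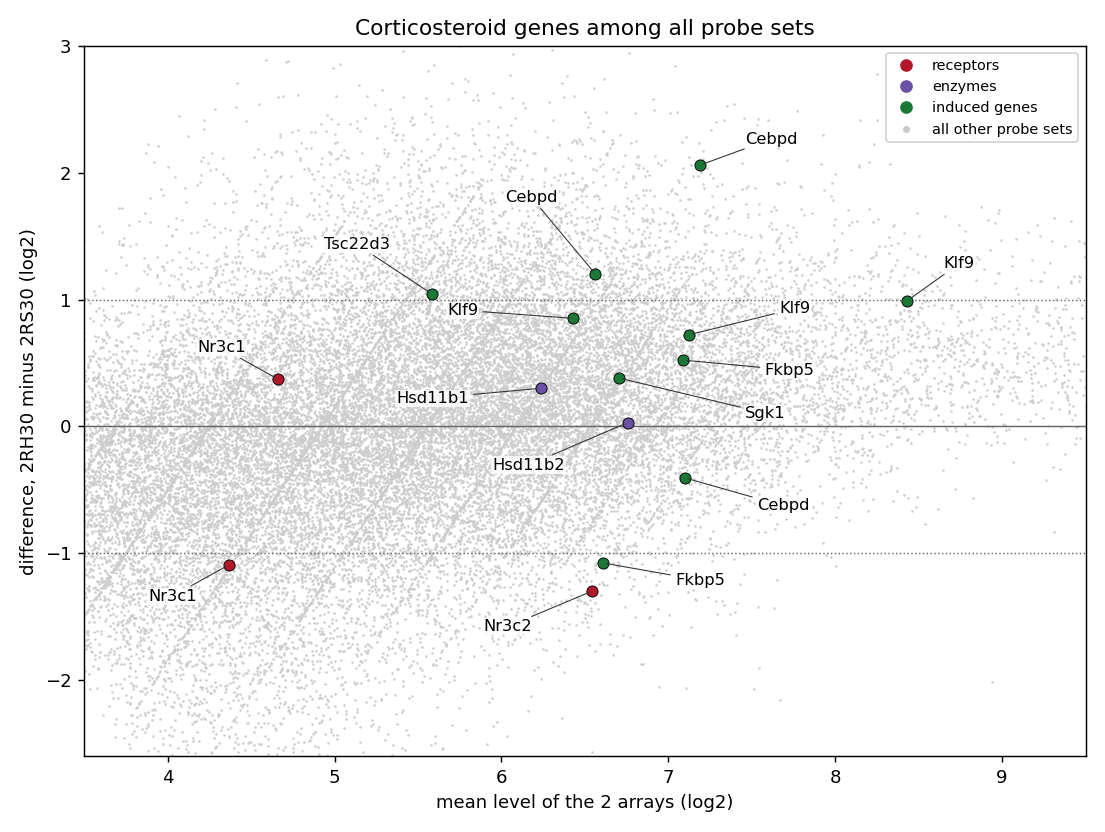
Difference, 2RH30 minus 2RS30 (log2, vertical axis), of each probe set plotted by its level averaged over both arrays (log2, horizontal axis), for the 15 member probe sets (coloured by role) among all probe sets (grey) within the ranges drawn. Dotted lines mark 2-fold; 3 member probe sets lie above the upper line and 3 below the lower line, and the brightest, of Klf9, lies at 0.99.

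**Figure D3:**
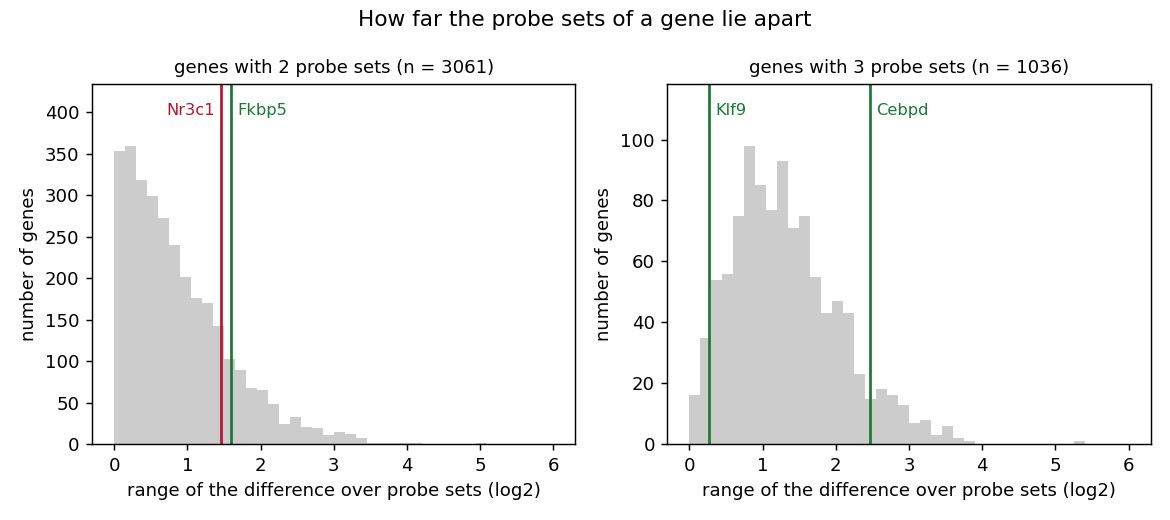
Number of genes (vertical axis) by the range of the difference over their probe sets (log2, horizontal axis), for genes with 2 probe sets (left) and 3 probe sets (right), with the members as vertical lines. Klf9 at 0.27 lies near the left end, and Cebpd at 2.46, Fkbp5 at 1.60 and Nr3c1 at 1.46 lie to the right of most genes.

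Other genes known to be induced by glucocorticoids were read from a list of 20, all measured. As deposited 14 were higher and 6 lower. Past 2-fold, 3 were higher (Lcn2, Errfi1 and Rgs2) and 2 lower (Pck1 and the dim Anxa1). Over all genes 56.1% were higher, 11.5% were 2-fold or more higher and 9.62% were lower by that much. The median of the list was 0.40, beside 0.11 over all genes. Level-adjusted, 10 were higher and 10 lower, with 2 and 2 past 2-fold. The shares over all genes were then 51.2% higher, and 8.95% and 9.31% past 2-fold. The level-adjusted median of the list was 0.0055 beside 0.02. These shares over all genes stand beside the counts of the later lists as well. With the mean over probe sets the level-adjusted median was 0.19 beside 0.04 over all genes, and with the probe set brightest in 2RS30 it was -0.05 beside -0.03, so the place of the list relative to all genes varied with the probe sets taken.

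The members of that list that were read highest and lowest differ in role. Lcn2, a secreted iron-siderophore carrier that cytokines also induce, read 4.25 in 2RS30 and 5.87 in 2RH30 (difference 1.62, level-adjusted 1.71). Errfi1, a feedback inhibitor of EGF receptor signaling, read 5.07 and 6.46 in the same order (1.39, level-adjusted 1.25). Rgs2, a regulator of G protein signaling, had differences of 1.11 and 0.38 in its probe sets (level-adjusted 0.61 and -0.08). Pck1, the gluconeogenic enzyme for which glucocorticoid induction is best known in liver, read 6.05 in 2RS30 and 3.86 in 2RH30, differing by -2.19 (level-adjusted -2.06). Glul, glutamine synthetase, read -0.19 in its brightest probe set but 2.53 and 1.36 in the others, as differences (level-adjusted -0.60, 2.16 and 1.01). The 2RS30 value behind the 2.53 is the shared value of Hsd11b1. Per1, a clock gene with a direct receptor site, differed by -0.06 (level-adjusted -0.50). Pnmt, the epinephrine-forming enzyme, read 11.35 in 2RS30 and 11.67 in 2RH30, differing by 0.31 (level-adjusted -0.27), both below the yardstick.

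The chaperones that hold the receptor in its hormone-binding state showed no 2-fold difference. Of 9 measured genes on a list of 11, 6 were higher and 3 lower as deposited, with a median of 0.46, and level-adjusted 4 were higher and 5 lower, with a median of -0.10. Dnaja1, a co-chaperone of Hsp70, differed by 0.81 in its brightest probe set and by 0.04 in the other (level-adjusted 0.38 and -0.35). Stip1, which links Hsp70 to Hsp90, differed by 0.70 (level-adjusted 0.29). Fkbp4, the immunophilin that takes the place of Fkbp5 when the receptor moves to the nucleus, differed by 0.63 (level-adjusted 0.23), from a 2RS30 value shared with 87 other probe sets. Ptges3, which encodes the co-chaperone p23, differed by -0.45 (level-adjusted -0.61) from the same shared value as Hsd11b1, and Bag1 and Ppid by -0.21 and -0.02 (level-adjusted -0.49 and -0.39).

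Among receptor coregulators 13 of 14 were measured, 9 higher and 4 lower, with 1 past 2-fold upward (Ncoa1) and 2 downward (Nrip1 and Ppargc1a) and a median of 0.26. Of all genes, 11.5% and 9.62% were past 2-fold upward and downward. Level-adjusted, 6 of the 13 were higher and 7 lower, 0 and 1 past 2-fold (8.95% and 9.31% of all genes), with a median of -0.04. The coactivator Ncoa1 differed by 1.01 in its brightest probe set and by -1.46 and 0.40 in the others (level-adjusted 0.94, -1.48 and 0.85), both of the others resting on shared 2RS30 values. Ep300, an acetyltransferase, differed by 0.96 in its brightest probe set and by 0.10 in the other, a dim one (level-adjusted 0.62 and 0.435). Ncoa2, a coactivator, differed by 0.93 (level-adjusted 0.55). Nrip1, a corepressor of nuclear receptors, read 5.60 in 2RS30 and 4.36 in 2RH30, differing by -1.24 (level-adjusted -1.12). The dim Ppargc1a, a coactivator, differed by -1.03 (level-adjusted -0.84). The corepressor Ncor1 differed by -0.19 in its brightest probe set and by 0.96 and 1.46 in the others (level-adjusted -0.63, 0.59 and 1.25), the last from a 2RS30 value shared with 467 other probe sets. Smarca4, an ATPase of chromatin remodeling, differed by 0.21 in its brightest probe set and by 1.06 and 1.09 in the others (level-adjusted -0.30, 0.70 and 0.68).

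Of genes for steroid supply, cofactor and efflux 4 of 6 were measured, and 1 was higher and 3 were lower in both forms, with a median of -0.61 (level-adjusted -0.79). The 1 higher was H6pd, described above. Serpina6, which encodes corticosteroid-binding globulin, differed by -0.54 (level-adjusted -0.72), and Abcb1a, an efflux pump that carries corticosteroids, by -0.68 and -1.67 in its probe sets (level-adjusted -0.85 and -1.22). Akr1c14, a steroid-reducing enzyme that was dim, differed by -1.30 in its brightest probe set and by -2.18 and -0.18 in the others (level-adjusted -1.13, -1.73 and 0.12). Of genes for sodium transport that mineralocorticoids regulate in epithelia 7 of 8 were measured, 4 of them dim, with a median of -0.03 (level-adjusted 0.41). Scnn1g, a subunit of the epithelial sodium channel, differed by 0.75 and 0.31 in its probe sets (level-adjusted 0.63 and 0.21). Slc12a3, a sodium chloride cotransporter, differed by -0.52 (level-adjusted -0.73), from a 2RS30 value shared with 252 other probe sets. Atp1b1, a subunit of the sodium pump, differed by -0.40 and 0.07 in its probe sets (level-adjusted -0.86 and -0.34). The dim Scnn1b was the 1 past 2-fold, at 1.26 (level-adjusted 1.43).

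**Figure D4:**
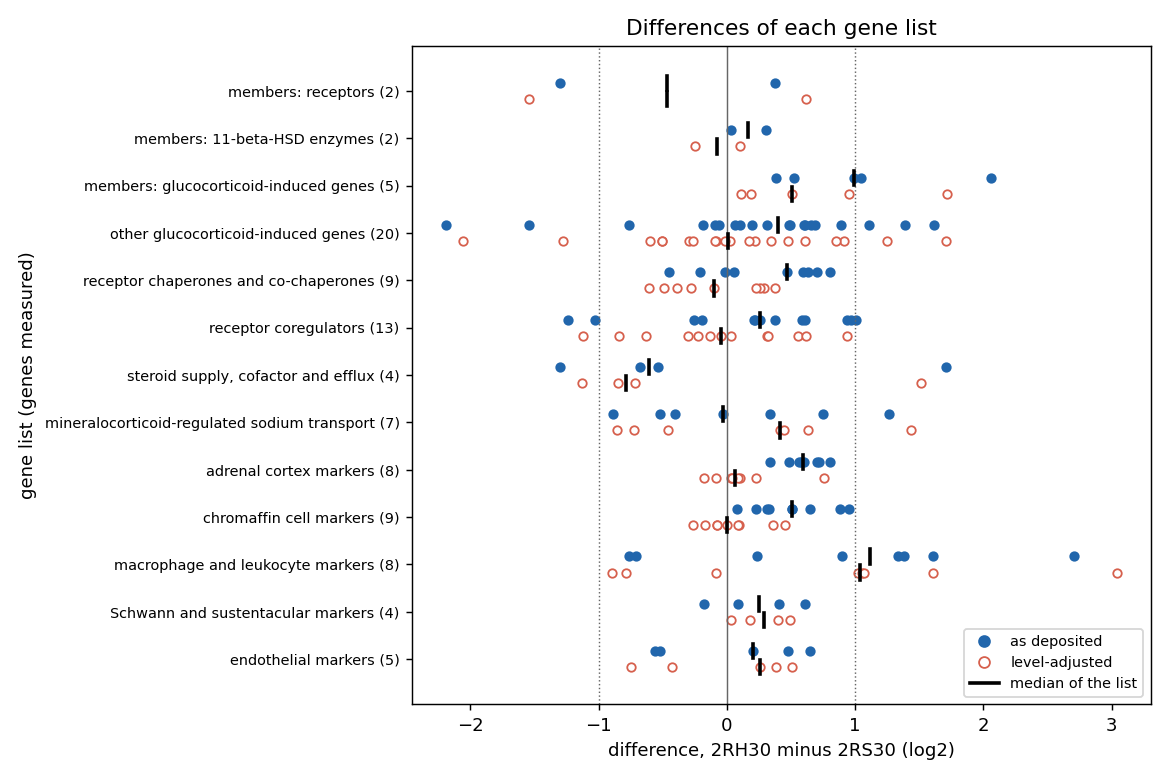
Difference, 2RH30 minus 2RS30 (log2, horizontal axis), of each measured gene by list (vertical axis, genes measured in parentheses), with filled points for deposited and open points for level-adjusted values, list medians as black bars and 2-fold as dotted lines. Each gene is drawn by its probe set of highest mean level, by which the 5 induced members lie to the right of 0 in both forms (3 of 5 by 2RS30 level), and the 20 other induced genes lie on both sides, with medians of 0.40 and 0.0055.

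Markers of the cell types that the dissected medulla could hold were read beside these genes. All 9 measured chromaffin cell markers read higher in 2RH30, at levels of 6.36 to 11.45 in 2RS30 and 6.62 to 11.96 in 2RH30, with a median difference of 0.51 (level-adjusted -0.0011, with 4 higher and 5 lower). Th, the first enzyme of catecholamine synthesis, was at 11.45 and 11.96. Markers of the adrenal cortex were bright on both arrays apart from the dim Nr0b1, so the pools also held RNA of cortex cells. The part of such cells in the levels and differences of the members was not tested. Of the 8 measured, Cyp11b1, the last enzyme of corticosterone synthesis, was at 10.98 and 11.46 and Star, which moves cholesterol into mitochondria, at 11.81 and 12.51. All 8 cortex markers read higher in 2RH30, with a median difference of 0.59 (level-adjusted 0.06, with 6 higher and 2 lower). The summed signal of the list, as a log2 value, was 14.18 in 2RS30 and 14.85 in 2RH30, and that of the chromaffin markers was 12.98 and 13.48.

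Macrophage and leukocyte markers, 8 of 8 measured, had a median difference of 1.11 (level-adjusted 1.04), with 6 higher and 2 lower, 4 of the 6 past 2-fold. Over all genes 11.5% were 2-fold or more higher. Level-adjusted, 5 of the 8 markers were 2-fold or more higher, against 8.95% of all genes. The summed signal of the list was 8.85 in 2RS30 and 9.64 in 2RH30. The complement genes C1qa, C1qb and C1qc differed by 2.71, 1.38 and 1.33 (level-adjusted 3.04, 1.03 and 1.06). Cd68 differed by 1.60 (level-adjusted 1.61), the dim Cd163 by 0.89 (level-adjusted 1.07) and Cd74 by 0.24 (level-adjusted -0.09). The 2 lower were Csf1r at -0.77 (level-adjusted -0.89) and Ptprc at -0.71 (level-adjusted -0.79). The other probe set of Ptprc, a dim one, differed by -2.13 (level-adjusted -1.68). Such cells express glucocorticoid-induced genes and Cebpd too, and their part in the differences of the members was not tested. The 4 measured Schwann and sustentacular markers had a median of 0.25 (level-adjusted 0.29) and the 5 measured endothelial markers 0.20 (level-adjusted 0.26), with 0 past 2-fold in both lists and both forms.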

How the data were processed

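Pooled total RNA of the left adrenal medulla (6 rats per group) had been read on 1 Affymetrix Rat Genome array for each group. The authors deposited 1 value per probe set and array, read here as log2 from its range. The submitters' processing notes name Affymetrix Expression Console, the paper used GCRMA in Partek and calls the submitted values quantile-normalized, and the summarization method was not given in the sources used here. The SD over probe sets was 1.28 in 2RS30 and 1.57 in 2RH30. Samples from other time points were not analysed here.

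The 57 array controls among 31099 probe sets were left out. Genes were named from the platform annotation of the array, with symbols updated by gene number through RefSeq (GRCr8), for which 20758 of the 20826 probe sets naming 1 gene matched, and 436 named several and 9780 none. A gene was read from its probe set of highest mean level unless all are given. The difference is 2RH30 minus 2RS30, with a 2-fold threshold as in the study, and the level adjustment removes the lowess trend of that difference across mean levels (fraction 0.3, 3 iterations). No test was possible with 1 array in a group, and this number limits the precision of every value. Percentiles of size are within 20 bins of mean level. The code was checked on simulated data with planted differences, with noise much smaller than the spread of the real differences (SD 0.86). That check concerns the code and does not measure how reliable the values of these arrays are.

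All members and their probe sets are named, and of each other list those genes, excluding dim ones, with the 3 highest and the 3 lowest differences. Anxa1, Ppargc1a, Akr1c14 and Scnn1b, which are dim, and the cell type markers given as values were named after their values were seen. The members and lists were chosen with earlier results of these data known. Alternatives were median centring, quantile normalization, lowess, no dim probe sets, the mean over probe sets, removal of probe sets with possible matches to several transcripts, and 1.5-fold and 3-fold thresholds. Leaving out values shared by 50 or more probe sets, and lowess combined with averaging of a gene's probe sets, were added after seeing the data, as was taking the probe set of highest level on either array. The work was done in Python 3.11.15 with pandas 2.3.3, numpy 2.4.6, statsmodels 0.14.6 and matplotlib 3.10.9.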

Additional observations from a re-analysis of the deposited data

How the results depend on the processing

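Member probe sets 2-fold higher, 3 as deposited, numbered 1 after lowess, 6 at a 1.5-fold threshold and 1 at 3-fold, and those 2-fold lower, 3 as deposited, numbered 0 at 3-fold. Member genes 2-fold higher, 2 as deposited, numbered 1 after lowess, 1 when probe sets were averaged, 1 with the probe set brightest in 2RS30 and 1 at 3-fold, and those 2-fold lower, 1 as deposited, numbered 3 with the probe set brightest in 2RS30 and 0 at 3-fold. All other alternatives kept these 4 counts within 1.5 times. The median of the member genes, 0.38, was 0.21 after quantile normalization, 0.19 after lowess, 0.10 after lowess with averaged probe sets and 0.030 with the probe set brightest in 2RS30. The median of the 20 other induced genes, 0.40, was 0.067 after quantile normalization, 0.0055 after lowess, 0.19 after lowess with averaged probe sets, 0.26 with the probe set brightest in 2RS30 and 0.60 with that brightest in 2RH30. Alternative values of single members numbered 124, with probe sets counted beside their genes, and many of them could not move far. Centring shifted every value by the same small amount. A gene with 1 probe set kept its value under each choice of probe set and when averaged. No member probe set was of the kind removed for possible matches to several transcripts. Of the 124, 120 moved by less than the SD of 0.82 between probe sets. Of the rest, Cebpd (2.06) reversed to -0.40 with the probe set brightest in 2RS30 and was 0.95 when averaged, and with the former choice Nr3c1 was -1.09 and Fkbp5 -1.08. Averaged, Nr3c1 and Fkbp5 were -0.36 and -0.28, and Hsd11b2 was -0.25 after lowess and -0.23 after quantile normalization, all opposite in sign to the deposited value. Nr3c1, dim in both probe sets, has no value without dim probe sets, and Hsd11b1 none without shared values. No paired analysis was possible because 1 array stands for either treatment. The sources used here state no background for the arrays, which leaves the dim readings of Nr3c1 without a known floor.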
